A study of Arabidopsis thaliana with 18 samples.

Results

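The 2 *aff1* alleles of this *Arabidopsis thaliana* study were set against each other: *aff1-3* against *aff1-1*, within mock treatment and within auxin treatment. These are 12 of the 18 whole-seedling RNA-seq libraries, 3 of each allele in each treatment, and the other 6 are from wild-type (Wt) seedlings of the Columbia accession (Col-0), the background of both alleles. Seedlings were 4 d old and were given either 10 µM of the auxin indole-3-acetic acid (IAA) or a mock treatment with its solvent, ethanol, for 2 h. *aff1-3* is a T-DNA insertion line (Salk_083453), which the sample labels call aff1-2 and the study's text calls *aff1-3*. *aff1-1* is an allele made with ethyl methanesulfonate (EMS) that was found in a screen on *arf19-1* plants carrying 35S:YFP-ARF19, was backcrossed 3 times to Col-0 and was separated from a nearby *RDR6* mutation by genotyping. Each allele is represented by 1 line, so an allele and the rest of that line's genome cannot be told apart. Of 19383 genes tested among 28278 gene rows, 18 differed between *aff1-3* and *aff1-1* in the same direction in both treatments, and these are the genes described here. In the *aff1-3* mock group replicate 2 stood apart: plastid and mitochondrial genes took 4.93% of its counts, against 2.31% and 2.51% in the other libraries of that group, and its Spearman correlations with them were 0.983 and 0.981, against 0.991 between those. Without it 18 genes were called under mock treatment, 15 in both treatments and 150 in the average of both, against 27, 18 and 101 with all libraries; its part in the results was not tested otherwise. The study's text says that the treatment was repeated 3 times for each line. Nothing in the labels says that the 3 samples of a group came from separate cultures, so the p-values measure the spread between these samples, which may in part be technical.

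*AFF1* (*AUXIN RESPONSE FACTOR F-BOX1*, AT3G49150) encodes an F-box protein. F-box proteins are the subunits that pick the substrate of an SCF-type E3 ubiquitin ligase, the enzyme that marks proteins for degradation, and *AFF1* is named for its link to the auxin response factors ARF7 and ARF19. In auxin signalling, IAA joins the TIR1 receptor, itself an F-box protein, to Aux/IAA repressors, whose loss frees such transcription factors at auxin-responsive genes. *AFF1* lies at chr3:18218858-18220430 on the plus strand of TAIR10.1 and has 3 exons. The *aff1-1* lesion is a C-to-T change in exon 1 (chr3:18218858-18219884), C278T from the start of the coding sequence, which turns codon 93 and gives P93L. The reference bases around that codon, chr3:18219110-18219160 with codon 93 in capitals, are shown because codon 93 is the site of the *aff1-1* change.
AFF1 codon 93: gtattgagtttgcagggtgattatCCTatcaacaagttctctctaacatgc

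The targeted gene itself was among the 18. *aff1-3* libraries held 104, 88 and 144 *AFF1* reads in mock seedlings, against 1, 2 and 1 reads in *aff1-1* mock seedlings, and 73, 54 and 46 reads after IAA, against 3, 0 and 0 reads in *aff1-1*. As CPM (the read count divided by the TMM-adjusted library size and scaled to a fixed total), these were 4.03, 3.94 and 5.36 CPM in *aff1-3* and 0.0437, 0.128 and 0.0382 CPM in *aff1-1* under mock treatment. Every *aff1-3* library was thus above every *aff1-1* library, and the gene was near the detection limit in *aff1-1*. Summed over the 3 libraries of a group, *AFF1* was 72.4-fold higher in *aff1-3* than in *aff1-1* under mock treatment (95% interval 28 to 267) and 78.9-fold higher after IAA (26.5 to 386), where the intervals cover counting error only. Genes were tested by the quasi-likelihood F test of edgeR, with p-values adjusted by Benjamini and Hochberg's method over all 19383 genes. By this test the log2 fold change (*aff1-3*/*aff1-1*, with its SE) was 6.04 ± 0.53 in mock seedlings (adjusted p = 1.58e-06) and 6.14 ± 0.56 after IAA (adjusted p = 2.82e-06). Here and below, this SE is the size of the fold change divided by the square root of F. For a gene this near to 0 reads it is too small, since the counting intervals above are wider than it implies. Wt seedlings had 2, 6 and 9 *AFF1* reads under mock treatment and 5, 8 and 1 reads after IAA, so Wt was also low, and the insertion line carried more *AFF1* reads than either of the other genotypes. A count per gene does not show on which side of the insertion these reads lie, and a missense change such as P93L is not visible in it.

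Under mock treatment 27 genes were called between *aff1-3* and *aff1-1* at an adjusted p below 0.01, which is 0.139% of the genes tested: 10 were higher in *aff1-3* (0.0516%) and 17 lower. After IAA 35 genes were called (0.181%), 14 higher (0.0722%) and 21 lower. The 2 lists come from separate seedlings and shared 18 genes (0.0929% of the genes tested), 66.7% of the mock list and 51.4% of the IAA list. Of the 18 genes, 8 were higher and 10 lower in *aff1-3*, and no gene was called in opposite directions. Of the 9 genes called under mock treatment only, all 9 had the same sign after IAA. Of the 17 called after IAA only, 15 had the same sign under mock treatment. Over all genes tested, 56.5% had the same sign in both treatments. All 18 also had *aff1-3* libraries that did not overlap with the *aff1-1* libraries in either treatment, which held for 2.74% of all genes tested, but the calls had already chosen these genes for their separation.

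**Figure D1:**
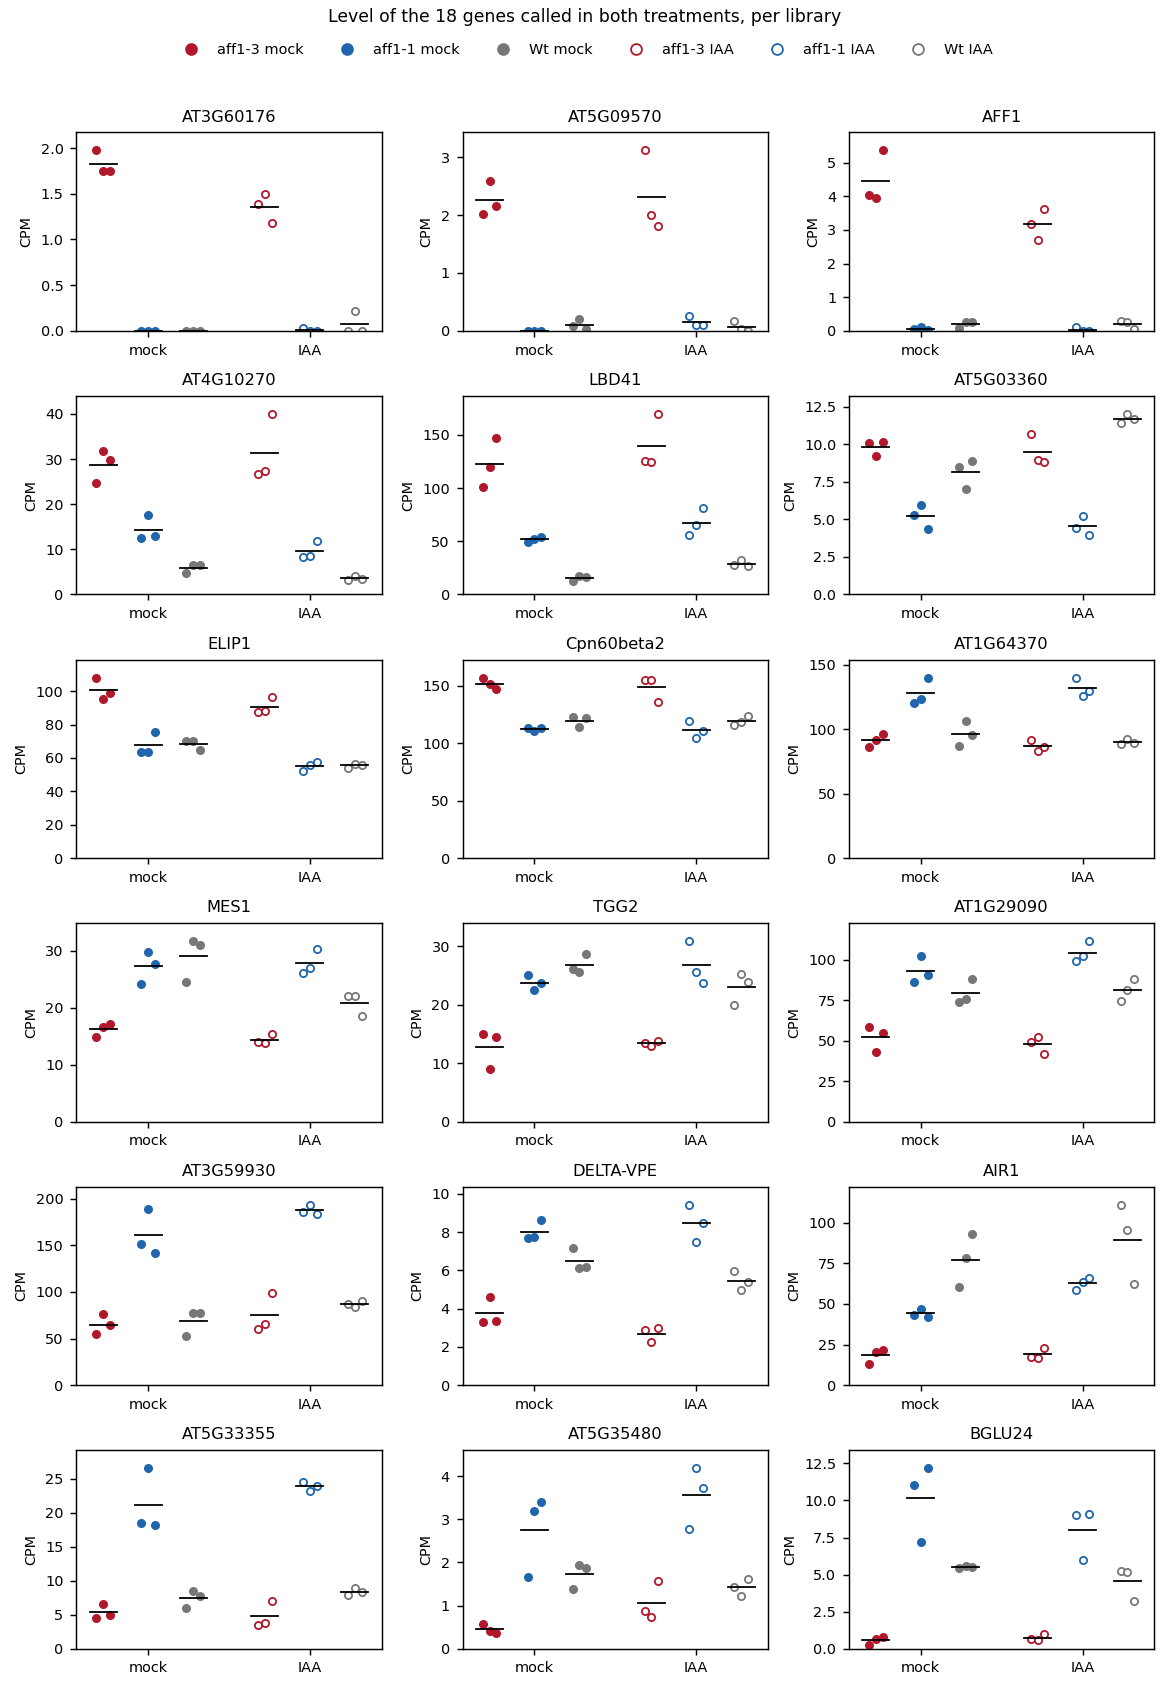
Each panel plots 1 of the 18 genes, with its level in CPM (linear axis from 0) for each library on the y axis and the groups on the x axis: *aff1-3* (red), *aff1-1* (blue) and Wt (grey), mock as filled points and IAA as open points, with the mean of 3 libraries as a line. In each panel and treatment the *aff1-3* points lie wholly above or wholly below the *aff1-1* points, while the Wt points fall near *aff1-1* in some panels and near *aff1-3* in others.

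The lists depend on single libraries. The mock count of 27 was 13, 15 and 12 without *aff1-1* mock replicates 1, 2 and 3, and 13 and 16 without *aff1-3* mock replicates 1 and 3. The IAA count of 35 was 69 without *aff1-1* IAA replicate 1, 22 without *aff1-1* IAA replicate 3 and 23 without *aff1-3* IAA replicate 1. The 18 shared genes became 11 without *aff1-1* mock replicate 1, 10 without *aff1-1* mock replicate 3 and 10 without *aff1-3* mock replicate 1. *LBD41*, AT3G59930, *BGLU24* and AT5G33355 were in the shared list under all 23 settings tried, 12 of which leave out 1 *aff1* library. Lost calls given below for single genes are those with 1 library left out. Calls were also lost under other tools and sample sets, which are taken up near the end. Averaging the *aff1-3* minus *aff1-1* difference over both treatments uses all 12 libraries at once, and called 101 genes (0.521% of those tested), 32 higher (0.165%) and 69 lower (0.356%) in *aff1-3*. The 101 included all 18, each of which remained called in this average without any 1 library (highest adjusted p = 0.000386, *Cpn60beta2*). The 18 had been chosen by their calls in both treatments, which the average combines over the same libraries. Their place in the average was thus nearly set in advance and is no separate support. The average count itself was 63 without *aff1-3* IAA replicate 1.

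2 of the 18 genes were, like *AFF1*, nearly without reads in *aff1-1*. AT3G60176, a non-coding RNA gene at chr3:22240155-22241164, had 51, 39 and 47 reads in *aff1-3* mock libraries, against 0 reads in each *aff1-1* mock library, and 32, 30 and 15 reads after IAA, against 1, 0 and 0 reads in *aff1-1*. Wt had no AT3G60176 reads under mock treatment and 0, 7 and 0 after IAA, so the gene was read almost only in *aff1-3*. Against a floor of 3 counts over the *aff1-1* group it was at least 39.4-fold higher in *aff1-3* under mock treatment (adjusted p = 0.000336). After IAA the ratio of summed counts was 105 (counting interval 18.4 to 4210, adjusted p = 0.00065), and this IAA call was lost without *aff1-1* IAA replicate 3 (adjusted p = 0.0117).

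AT5G09570 encodes a Cox19-like protein of the CHCH family, small proteins with paired cysteines that fold in the mitochondrial intermembrane space. It had 52, 58 and 58 reads in *aff1-3* mock libraries, against 0 reads in each *aff1-1* mock library, and 72, 40 and 23 reads after IAA, against 7, 2 and 3 reads in *aff1-1*. This makes AT5G09570 at least 48.3-fold higher in *aff1-3* under mock treatment against the floor of 3 counts (adjusted p = 4.11e-05) and 15.4-fold higher after IAA (counting interval 8.53 to 30.5, adjusted p = 0.000354). Wt libraries held 2, 5 and 1 AT5G09570 reads under mock treatment and 3, 1 and 0 after IAA, so here too *aff1-3* was the genotype that stood apart. Both genes were at a low level in *aff1-3*, 1.19 to 3.12 CPM over the 6 libraries. Fitted log2 fold changes of genes at 0 depend on the prior count and are drawn only in the plots of fold changes.

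*LBD41* and AT4G10270, which were also higher in *aff1-3*, belong to the low-oxygen response. Plants sense oxygen through the cysteine branch of the N-degron pathway: plant cysteine oxidases oxidise the N-terminal cysteine of group VII ethylene response factors, which are then degraded, and under low oxygen these factors persist and switch on genes of fermentation and of feedback on the response. *LBD41* encodes a LOB-domain transcription factor that is a regular member of this gene set. *LBD41* had 101, 119.5 and 147 CPM in *aff1-3* mock seedlings, against 49.8, 52.1 and 53.6 CPM in *aff1-1* mock seedlings. IAA-treated *aff1-3* libraries had 126, 124 and 169.6 CPM, against 56.1, 65.4 and 81 CPM in IAA-treated *aff1-1* libraries. The *aff1-3* libraries were above the *aff1-1* libraries throughout, with a log2 fold change of 1.24 ± 0.15 in mock seedlings (adjusted p = 0.000152) and 1.05 ± 0.15 after IAA (adjusted p = 0.000583). Both alleles were above Wt, which had 12.8, 17.7 and 16.2 CPM in mock and 27.9, 32.3 and 26.9 CPM in IAA-treated Wt seedlings.

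AT4G10270 and its divergently transcribed neighbour AT4G10265 are annotated as members of the wound-responsive family, small proteins whose transcripts rise under low oxygen, and their coding sequences are 74% identical. AT4G10270 had 24.6, 31.8 and 29.7 CPM in *aff1-3* mock seedlings, against 12.4, 17.57 and 12.9 CPM in *aff1-1* mock seedlings. In IAA-treated seedlings the values were 26.6, 27.3 and 39.97 CPM in *aff1-3* and 8.34, 8.42 and 11.8 CPM in *aff1-1*. The groups did not overlap, and the log2 fold change was 1.01 ± 0.17 in mock seedlings (adjusted p = 0.0068) and 1.70 ± 0.18 after IAA (adjusted p = 1.61e-05). The mock call of AT4G10270 was lost without *aff1-1* mock replicate 1 or 3 or any *aff1-3* mock library (adjusted p up to 0.0896). Wt was lower still, with 4.8, 6.46 and 6.56 CPM in mock and 3.24, 4.01 and 3.45 CPM in IAA-treated Wt seedlings. For AT4G10265 the log2 fold change was 1.21 ± 0.25 under mock treatment (adjusted p = 0.0421) and 2.32 ± 0.26 after IAA (adjusted p = 3.5e-05), so this neighbour was called after IAA only. AT4G10270 overlaps AT4G10280 on the opposite strand, and the strand setting of the counting is not given in the sources used here.

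Of 17 genes listed as low-oxygen responsive, all 17 of which were tested, 2 were called higher in *aff1-3* under mock treatment, 4 after IAA and 6 in the average of both treatments. The shares higher over all genes tested were 0.0516%, 0.0722% and 0.165%. The list was chosen with earlier results of these data known, so these counts are a description and no test of the list. Both genes called under mock treatment, *LBD41* and AT4G10270, are among the 18 genes that these same contrasts had picked. The median log2 fold change of the 17 was 0.16 under mock treatment, 0.47 after IAA and 0.37 in the average, where the median of all genes was 0.00. The 6 called in the average were *LBD41*, AT4G10270, AT4G10265, AT3G10040, AT3G27220 and AT5G39890. AT3G10040, annotated as a DNA-binding transcription factor, had an average log2 fold change of 1.59 ± 0.18 (adjusted p = 1.42e-05) and passed the test after IAA (1.88 ± 0.26, adjusted p = 0.000403). AT3G27220, a kelch-repeat protein gene, had 0.54 ± 0.10 (adjusted p = 0.00691). AT5G39890, annotated as a cysteamine (2-aminoethanethiol) dioxygenase, the family of the plant cysteine oxidases, had 0.55 ± 0.10 (adjusted p = 0.005). These last 2 calls were weak: that of AT3G27220 was lost without any *aff1* library but *aff1-3* mock replicate 2 and *aff1-1* IAA replicate 3 (adjusted p up to 0.0255), and that of AT5G39890 without *aff1-1* mock replicate 1 or 3, *aff1-1* IAA replicate 1 or 2, *aff1-3* mock replicate 3, or *aff1-3* IAA replicate 1 or 3 (up to 0.021). *ERF71*, AT5G15120, *FTM1* and AT4G33560 were at 0.33, 0.37, 0.38 and 0.50 in the average and were not called (lowest adjusted p = 0.0372). AT4G33070 and *HB1* were at -0.10 in the average, and *ETR2* was at -0.06. *SUS1*, *ERF73* and *SUS4* were at 0.01, 0.04 and 0.11. The best-known fermentation gene, *ADH1* (alcohol dehydrogenase), had a negative fold change of -0.38 ± 0.15 under mock treatment (adjusted p = 0.408) and -0.58 ± 0.16 after IAA (adjusted p = 0.115), and -0.48 ± 0.11 in the average (adjusted p = 0.0298), none of them called. Unlike *LBD41* and AT4G10270, *ADH1* was lower than Wt in both alleles: the log2 fold change against Wt was -1.20 under mock treatment and -1.38 after IAA in *aff1-3*, and -0.81 and -0.80 in *aff1-1* (highest adjusted p = 0.00152). In bulk seedlings a difference in RNA per cell and a difference in the share of cells that express a gene cannot be told apart.

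**Figure D2:**
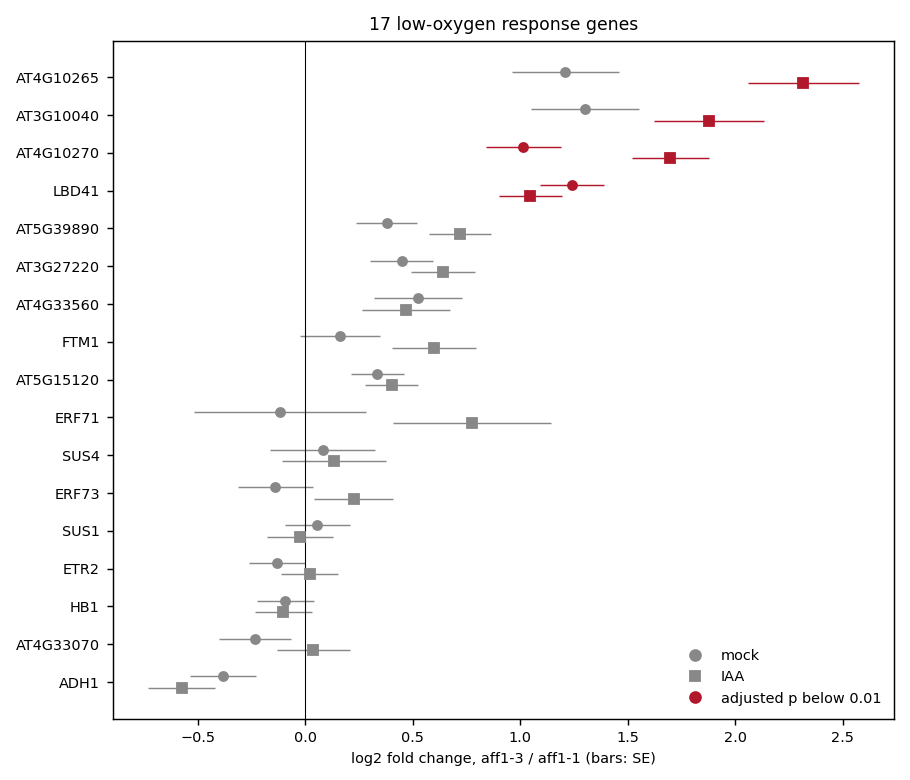
Log2 fold change of *aff1-3* over *aff1-1* (x axis, bars are SE) for each of 17 low-oxygen response genes (rows), with mock as circles, IAA as squares and values at an adjusted p below 0.01 in red. Red marks stand at the 4 uppermost genes, *LBD41* and AT4G10270 in both treatments and AT4G10265 and AT3G10040 after IAA, and *ADH1* lies at the bottom on the negative side.

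Group VII ethylene response factors are known to bind a promoter element with the core AAACCA. This was searched as AAACCA or its reverse complement TGGTTT from 250 bases before to 50 bases after each transcription start of the RefSeq annotation of TAIR10.1. It occurred in 32% of 27443 such windows, in 11 of the 17 low-oxygen genes (64.7%), in 4 of the 6 called in the average and in 3 of the 18 genes called in both treatments. The windows of *LBD41*, AT4G10270 and AT4G10265 are shown with AAACCA on the printed strand in capitals, since 2 of these genes carry it and *LBD41*, the more stably called gene, has no match in either direction. In AT4G10270 the 2 matches start 230 and 100 bases before the start site, and in AT4G10265 they start 4 and 13 bases after it. A match is a description of the letters and not a measured binding site.
LBD41 (chr3:538077-538376, minus strand): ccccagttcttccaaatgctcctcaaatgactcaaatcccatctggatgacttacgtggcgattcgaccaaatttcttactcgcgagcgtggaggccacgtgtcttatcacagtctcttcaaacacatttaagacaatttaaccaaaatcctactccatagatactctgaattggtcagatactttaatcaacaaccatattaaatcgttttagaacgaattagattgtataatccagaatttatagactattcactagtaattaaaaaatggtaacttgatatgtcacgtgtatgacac
AT4G10270 (chr4:6374484-6374783, plus strand): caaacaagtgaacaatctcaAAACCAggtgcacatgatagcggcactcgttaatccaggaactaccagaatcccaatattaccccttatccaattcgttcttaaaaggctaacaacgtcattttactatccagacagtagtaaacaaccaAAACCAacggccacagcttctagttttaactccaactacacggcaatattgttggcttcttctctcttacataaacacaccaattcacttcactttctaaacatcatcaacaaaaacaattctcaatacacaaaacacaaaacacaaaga
AT4G10265 (chr4:6373618-6373917, minus strand): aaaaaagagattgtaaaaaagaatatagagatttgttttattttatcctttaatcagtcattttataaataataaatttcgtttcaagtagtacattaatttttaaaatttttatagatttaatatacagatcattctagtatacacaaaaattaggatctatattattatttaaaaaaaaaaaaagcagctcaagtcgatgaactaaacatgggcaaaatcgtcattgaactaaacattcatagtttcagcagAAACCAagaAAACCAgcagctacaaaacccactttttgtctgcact

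The other 3 genes higher in *aff1-3* were *ELIP1*, *Cpn60beta2* and AT5G03360. *ELIP1* encodes an early light-induced protein, a chlorophyll-binding protein of the thylakoid that protects against excess light. *ELIP1* had 108, 95.4 and 98.9 CPM in *aff1-3* mock seedlings, against 63.7, 63.7 and 75.8 CPM in *aff1-1* mock seedlings. After IAA it had 87.8, 88.1 and 96.5 CPM in *aff1-3*, against 52.1, 56 and 57.6 CPM in *aff1-1*. No *aff1-3* library fell within the *aff1-1* range, and the log2 fold change was 0.57 ± 0.08 in mock seedlings (adjusted p = 0.00118) and 0.72 ± 0.08 after IAA (adjusted p = 5.3e-05). The mock call of *ELIP1* was lost without *aff1-1* mock replicate 1 or 2 or *aff1-3* mock replicate 1 (adjusted p up to 0.0143).

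*Cpn60beta2* encodes a beta subunit of the chloroplast chaperonin, which folds imported plastid proteins. *Cpn60beta2* averaged 152 ± 5.18 CPM in *aff1-3* and 112 ± 1.71 CPM in *aff1-1* under mock treatment, and 149 ± 10.8 CPM in *aff1-3* and 111 ± 7.52 CPM in *aff1-1* after IAA (SD, n = 3 each). This was the smallest of the 18 differences, with a log2 fold change of 0.43 ± 0.07 in mock seedlings (adjusted p = 0.0068) and 0.42 ± 0.07 after IAA (adjusted p = 0.00761), and it lost its mock call without any of the 6 *aff1* mock libraries or *aff1-1* IAA replicate 3 (adjusted p up to 0.0532). Its IAA call was lost without *aff1-1* mock replicate 1 or 3, *aff1-1* IAA replicate 2 or 3, or *aff1-3* IAA replicate 1 or 2 (up to 0.0779). *Cpn60beta2* overlaps AT3G13480 on the opposite strand. AT5G03360, annotated as a protein with C1 domains, was the opposite case against Wt. AT5G03360 had 10.1, 9.22 and 10.2 CPM in *aff1-3* mock seedlings, against 5.29, 5.94 and 4.39 CPM in *aff1-1* mock seedlings. IAA-treated *aff1-3* libraries had 10.7, 8.92 and 8.85 CPM, against 4.42, 5.23 and 3.98 CPM in IAA-treated *aff1-1* libraries. The log2 fold change of AT5G03360 was 0.93 ± 0.14 in mock seedlings (adjusted p = 0.0028) and 1.08 ± 0.15 after IAA (adjusted p = 0.000403), with the mock call lost without *aff1-1* mock replicate 1 or 3 or *aff1-3* mock replicate 1 or 3 (adjusted p up to 0.0369). Wt had 8.48, 7.05 and 8.9 CPM in mock and 11.4, 12 and 11.7 CPM in IAA-treated Wt seedlings, above every *aff1-1* library, so *aff1-1* was the low genotype.

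Among the 10 genes lower in *aff1-3*, *BGLU24* differed most. It encodes a beta-glucosidase related to PYK10, the main glucosidase of the endoplasmic reticulum bodies of roots and seedlings, with 80.9% identity between the coding sequences. *aff1-3* mock libraries held 7, 14 and 21 *BGLU24* reads, against 253, 113 and 319 reads in *aff1-1*, and after IAA they held 15, 12 and 13 reads, against 247, 115 and 271 reads in *aff1-1*. The highest *aff1-3* library was at 1.03 CPM and the lowest *aff1-1* library at 6.01 CPM. The log2 fold change was -4.18 ± 0.30 in mock seedlings (adjusted p = 1.07e-07) and -3.47 ± 0.31 after IAA (adjusted p = 2.47e-06), and Wt lay between, with 5.43, 5.58 and 5.53 CPM in mock and 5.23, 5.15 and 3.23 CPM in IAA-treated Wt seedlings. *TGG2* encodes a myrosinase, a beta-glucosidase, which hydrolyses glucosinolates when tissue is damaged, and its coding sequence is 80.6% identical to that of *TGG1*. *TGG2* had 15, 8.99 and 14.4 CPM in *aff1-3* mock seedlings, against 25.1, 22.5 and 23.6 CPM in *aff1-1* mock seedlings. In IAA-treated seedlings the values were 13.4, 13 and 13.8 CPM in *aff1-3* and 30.9, 25.6 and 23.7 CPM in *aff1-1*. The groups did not overlap, with a log2 fold change of -0.89 ± 0.15 in mock seedlings (adjusted p = 0.00488) and -1.0 ± 0.15 after IAA (adjusted p = 0.000949). The mock call of *TGG2* was lost without any *aff1-1* mock library or *aff1-3* mock replicate 2 (adjusted p up to 0.0397), and the IAA call without *aff1-3* IAA replicate 1 or 2 (up to 0.0122).

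A pair of cysteine proteases was lower in *aff1-3*. *DELTA-VPE* encodes a vacuolar processing enzyme, a protease known from the cell death of the inner seed coat layers. *DELTA-VPE* had 3.29, 4.61 and 3.35 CPM in *aff1-3* mock seedlings, against 7.7, 7.73 and 8.62 CPM in *aff1-1* mock seedlings. After IAA it had 2.86, 2.24 and 3 CPM in *aff1-3*, against 9.43, 7.48 and 8.47 CPM in *aff1-1*. Every *aff1-3* library was below every *aff1-1* library, and Wt was between them, with 7.14, 6.13 and 6.17 CPM in mock and 5.97, 4.99 and 5.42 CPM in IAA-treated Wt seedlings. The log2 fold change of *DELTA-VPE* was -1.10 ± 0.16 in mock seedlings (adjusted p = 0.00161) and -1.66 ± 0.17 after IAA (adjusted p = 1.45e-05), and its mock call was lost without *aff1-1* mock replicate 3 or *aff1-3* mock replicate 1 or 3 (adjusted p up to 0.0175). AT1G29090, annotated as a papain-type cysteine proteinase, was more abundant. AT1G29090 had 58.4, 43.2 and 54.6 CPM in *aff1-3* mock seedlings, against 86.4, 102 and 90.5 CPM in *aff1-1* mock seedlings. IAA-treated *aff1-3* libraries had 49.2, 52 and 42 CPM, against 99.4, 102 and 112 CPM in IAA-treated *aff1-1* libraries. Its libraries did not overlap, and the log2 fold change was -0.84 ± 0.11 in mock seedlings (adjusted p = 0.000425) and -1.13 ± 0.11 after IAA (adjusted p = 8.61e-06).

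*AIR1* (auxin-induced in root cultures 1) encodes a lipid-transfer type extracellular protein. *AIR1* had 13, 20.6 and 22 CPM in *aff1-3* mock seedlings, against 43.3, 47 and 42.2 CPM in *aff1-1* mock seedlings. In IAA-treated seedlings the values were 17.1, 17 and 23.1 CPM in *aff1-3* and 58.5, 63.4 and 66.1 CPM in *aff1-1*. *aff1-3* was below both other genotypes, since Wt had 60.2, 78.5 and 92.9 CPM in mock and 111, 95.6 and 62 CPM in IAA-treated Wt seedlings. The log2 fold change of *AIR1* between *aff1-3* and *aff1-1* was -1.25 ± 0.20 in mock seedlings (adjusted p = 0.00309) and -1.73 ± 0.20 after IAA (adjusted p = 5.3e-05), and its mock call was lost without any *aff1-1* mock library or *aff1-3* mock replicate 1 (adjusted p up to 0.0202). *AIR1* has a tandem copy, AT4G12545, with 93.2% coding identity, so reads of the 2 genes may be hard to separate. *AIR1* and *DELTA-VPE* each overlap a gene on the opposite strand of the annotation, AT4G12555 and AT3G03955. AT4G12545 had a log2 fold change of -0.74 ± 0.15 under mock treatment (adjusted p = 0.0351) and -0.93 ± 0.15 after IAA (adjusted p = 0.00309).

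*MES1* encodes a methyl esterase, of the family that releases salicylic acid and IAA from their methyl esters. *MES1* averaged 16.2 ± 1.21 CPM in *aff1-3* and 27.3 ± 2.84 CPM in *aff1-1* under mock treatment, and 14.4 ± 0.841 CPM in *aff1-3* and 27.9 ± 2.18 CPM in *aff1-1* after IAA (SD, n = 3 each). Between the alleles the log2 fold change was -0.75 ± 0.12 in mock seedlings (adjusted p = 0.00278) and -0.96 ± 0.12 after IAA (adjusted p = 0.00012), and the mock call was lost without *aff1-1* mock replicate 2 or 3 or *aff1-3* mock replicate 1 (adjusted p up to 0.0227). AT1G64370, annotated as filaggrin-like, was also modestly lower in *aff1-3*. It averaged 91.4 ± 4.91 CPM in *aff1-3* and 128 ± 10.2 CPM in *aff1-1* under mock treatment, and 87 ± 4.06 CPM in *aff1-3* and 132 ± 7.37 CPM in *aff1-1* after IAA. AT1G64370 had a log2 fold change of -0.49 ± 0.08 in mock seedlings (adjusted p = 0.0068) and -0.60 ± 0.08 after IAA (adjusted p = 0.000524), and its mock call was lost without any of the 6 *aff1* mock libraries or *aff1-1* IAA replicate 3 (adjusted p up to 0.0735). AT5G35480 encodes an uncharacterised protein at a low level. AT5G35480 had 0.581, 0.403 and 0.372 CPM in *aff1-3* mock seedlings, against 1.66, 3.19 and 3.4 CPM in *aff1-1* mock seedlings. After IAA it had 0.866, 0.748 and 1.58 CPM in *aff1-3*, against 2.78, 4.18 and 3.72 CPM in *aff1-1*. Its libraries did not overlap in either treatment, with a log2 fold change of -2.58 ± 0.34 in mock seedlings (adjusted p = 0.000425) and -1.80 ± 0.31 after IAA (adjusted p = 0.00722), and the IAA call was lost without *aff1-1* IAA replicate 2 or 3 or *aff1-3* IAA replicate 1 or 2 (adjusted p up to 0.0949).

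The remaining 2 genes, AT3G59930 and AT5G33355, encode near-identical defensin-like peptides, small secreted cysteine-rich proteins, and lie on different chromosomes. Their 243-base coding sequences share 242 bases (99.6%). The first 60 coding bases of each are shown because they hold the only difference, C32T from AT3G59930 to AT5G33355, counted from the start codon and given in capitals.
AT3G59930: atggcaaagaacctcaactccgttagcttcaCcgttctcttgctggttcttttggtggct
AT5G33355: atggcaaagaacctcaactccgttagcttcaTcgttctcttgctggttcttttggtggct

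AT3G59930 had 54.4, 76.2 and 64.3 CPM in *aff1-3* mock seedlings, against 152, 189 and 141 CPM in *aff1-1* mock seedlings. IAA-treated *aff1-3* libraries had 59.97, 65.7 and 99.2 CPM, against 186, 194 and 184 CPM in IAA-treated *aff1-1* libraries. AT3G59930 had a log2 fold change of -1.31 ± 0.16 in mock seedlings (adjusted p = 0.000277) and -1.33 ± 0.17 after IAA (adjusted p = 0.000135). AT5G33355 had 4.53, 6.58 and 4.91 CPM in *aff1-3* mock seedlings, against 18.5, 26.5 and 18.17 CPM in *aff1-1* mock seedlings. In IAA-treated seedlings the values were 3.55, 3.84 and 7.03 CPM in *aff1-3* and 24.6, 23.2 and 23.9 CPM in *aff1-1*. The log2 fold change of AT5G33355 was -1.98 ± 0.20 in mock seedlings (adjusted p = 1.41e-05) and -2.37 ± 0.21 after IAA (adjusted p = 2.47e-06), and both genes had *aff1-3* libraries below all *aff1-1* libraries. Wt was nearer to *aff1-3* than to *aff1-1*, with 52.5, 77.2 and 77.2 CPM in mock and 87.5, 83.4 and 90.2 CPM in IAA-treated Wt seedlings for AT3G59930 and 6.06, 8.52 and 7.79 CPM in mock and 7.84, 8.94 and 8.39 CPM in IAA-treated Wt seedlings for AT5G33355. Of the 50-base windows of the exons, 77.8% for AT3G59930 and 71.9% for AT5G33355 occur once in the reference, so part of the reads of this pair cannot be assigned to either gene. The counts hold uniquely assigned reads only, so such reads are left out of both rows. Whether the 2 rows vary independently was not tested. The share was also below 90% for AT3G60176 (87%) and *AIR1* (88.6%), and at least 90% for the other 14 genes.

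*AIR1* and *BGLU24* are genes of roots and *DELTA-VPE* of seeds, so marker lists of these tissues were set beside the genes lower in *aff1-3*. The summed level of 11 root markers was 1870 to 2444 CPM in *aff1-3* mock libraries, against 2539 to 2725 CPM in *aff1-1* mock libraries, and 2230 to 2502 CPM after IAA, against 2661 to 2803 CPM in *aff1-1*. The lowest value was that of *aff1-3* mock replicate 2, without which the *aff1-3* mock range was 2340 to 2444 CPM. This sum is mostly *PYK10*, whose average log2 fold change was -0.25 (adjusted p = 0.102). The 10 other root markers summed to 165.5 to 202.3 CPM in *aff1-3* mock libraries, against 184.5 to 205.7 CPM in *aff1-1*, and to 180.6 to 191.7 CPM after IAA, against 154.4 to 177.1 CPM in *aff1-1*. Summed shoot markers were at 55440 to 60570 CPM over the 12 *aff1* libraries. By edgeR none of 11 root and 9 shoot markers was called in the average (2 and 0 at an unadjusted p below 0.05, and none by limma or DESeq2), and no root or shoot marker was at 0 in any *aff1* library. Seed storage and late embryo genes summed to 115.3 CPM in *aff1-1* IAA replicate 1 and to at most 17.7 CPM in the other *aff1* libraries. The part of tissue composition in the allele differences was not tested.

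Set against Wt, the 18 genes fell into groups by the allele that was called. These contrasts share the *aff1* libraries with the comparison of the alleles, and they call 6.78% of all genes for *aff1-3* and 4.58% for *aff1-1* under mock treatment, and 4.72% for *aff1-3* and 6.17% for *aff1-1* after IAA. In 9 genes *aff1-3* was called against Wt in both treatments and *aff1-1* in neither. Higher in *aff1-3* were *AFF1*, AT3G60176, AT5G09570, *ELIP1* and *Cpn60beta2*, and lower were AT1G29090, *MES1*, *TGG2* and *BGLU24*. This split rests on the threshold: after IAA, AT1G29090 was at 0.36 (adjusted p = 0.0311) and *MES1* at 0.41 (0.018) against Wt in *aff1-1*. The share of all genes with such a split was not counted. For *BGLU24* the log2 fold change against Wt was -3.29 (adjusted p = 3.41e-07) and -2.64 (9.5e-06) in *aff1-3*, under mock treatment and after IAA, and 0.89 (0.016) and 0.83 (0.0217) in *aff1-1*. In 4 genes only *aff1-1* was called: AT1G64370, AT5G03360 and the defensin-like pair. AT5G33355 was at -0.49 (adjusted p = 0.127) and -0.86 (0.0122) in *aff1-3*, and at 1.49 (2.98e-05) and 1.5 (1.93e-05) in *aff1-1*. In *LBD41* and AT4G10270 both alleles were above Wt in both treatments, *aff1-3* more than *aff1-1*: for *LBD41* 2.97 and 2.26 in *aff1-3*, and 1.73 and 1.21 in *aff1-1*, under mock treatment and after IAA. *DELTA-VPE*, *AIR1* and AT5G35480 had no such single pattern. By mean level Wt was nearer to *aff1-1* in both treatments for 13 of the 18 genes and nearer to *aff1-3* for 4. For 1 gene the nearer allele differed between the treatments. The 18 were chosen for a difference between the alleles, and the shares over all genes tested were not counted. These counts are therefore a description only.

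By the chromosome given in the AGI identifier, 2 of the 18 genes lie on chromosome 1, 1 on chromosome 2, 7 on chromosome 3, 2 on chromosome 4 and 6 on chromosome 5. Chromosome 3, which carries *AFF1*, thus held 38.9% of the 18 and 19.6% of the genes tested. Among the 101 genes of the average it held 18, next to 26 on chromosome 1, 10 on chromosome 2, 17 on chromosome 4, 29 on chromosome 5 and 1 in the plastid genome. The 7 genes of chromosome 3 were spread from *LBD41* near its upper end to AT3G60176 near its lower end and were not bunched at *AFF1*. Of the 100 tested genes nearest to *AFF1*, 50 on each side, none was called by edgeR in either treatment or the average (12 of 100 at an unadjusted p below 0.05 in the average, 0 by limma and 1 by DESeq2). Over all genes tested, 0.139% were called under mock treatment, 0.181% after IAA and 0.521% in the average, where 14.7% were at an unadjusted p below 0.05. At shares this low, 0 calls among 100 genes say little about the region. The 5 nearest on each side had average log2 fold changes of -0.19 to 0.28 (lowest adjusted p = 0.313). Within 250 tested genes or 1 Mb on either side of *AFF1* the only other gene called was *HEC2*, which encodes a bHLH transcription factor of the HECATE family of gynoecium and apex regulators. This 1 call in the average was 0.2% of those 500 tested genes, against 0.521% of all genes tested. *HEC2* (chr3:18656955-18658377, 0.438 Mb and 93 tested genes from *AFF1*) had a log2 fold change of 1.25 ± 0.21 under mock treatment (adjusted p = 0.00619) and 0.45 ± 0.20 after IAA (adjusted p = 0.364). Its mock call was lost without any of the 6 *aff1* mock libraries or *aff1-1* IAA replicate 3 (adjusted p up to 0.0532), and its call in the average without *aff1-1* IAA replicate 3 or *aff1-3* IAA replicate 1 (up to 0.0113). *RDR6*, whose mutation was segregated from *aff1-1*, had -0.13 under mock treatment and -0.20 after IAA (adjusted p = 0.836 and 0.691).

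Some of the 18 genes lie near each other. On chromosome 5, *BGLU24*, AT5G33355 and AT5G35480 fall within 54 tested genes in order (3.21 Mb), a stretch chosen after the positions were seen, and no other gene of that stretch was called in the average. All 3 were lower in *aff1-3*. On chromosome 3, AT3G59930 (lower in *aff1-3*) and AT3G60176 (higher in *aff1-3*) are 15 tested genes apart. Of the 72 tested genes that flank the 18, 2 on each side of each, 2 were called in the average, where 0.521% of all genes tested were called: AT4G10265 beside AT4G10270 and AT4G12545 beside *AIR1*. Both moved in the direction of their neighbour.

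**Figure D3:**
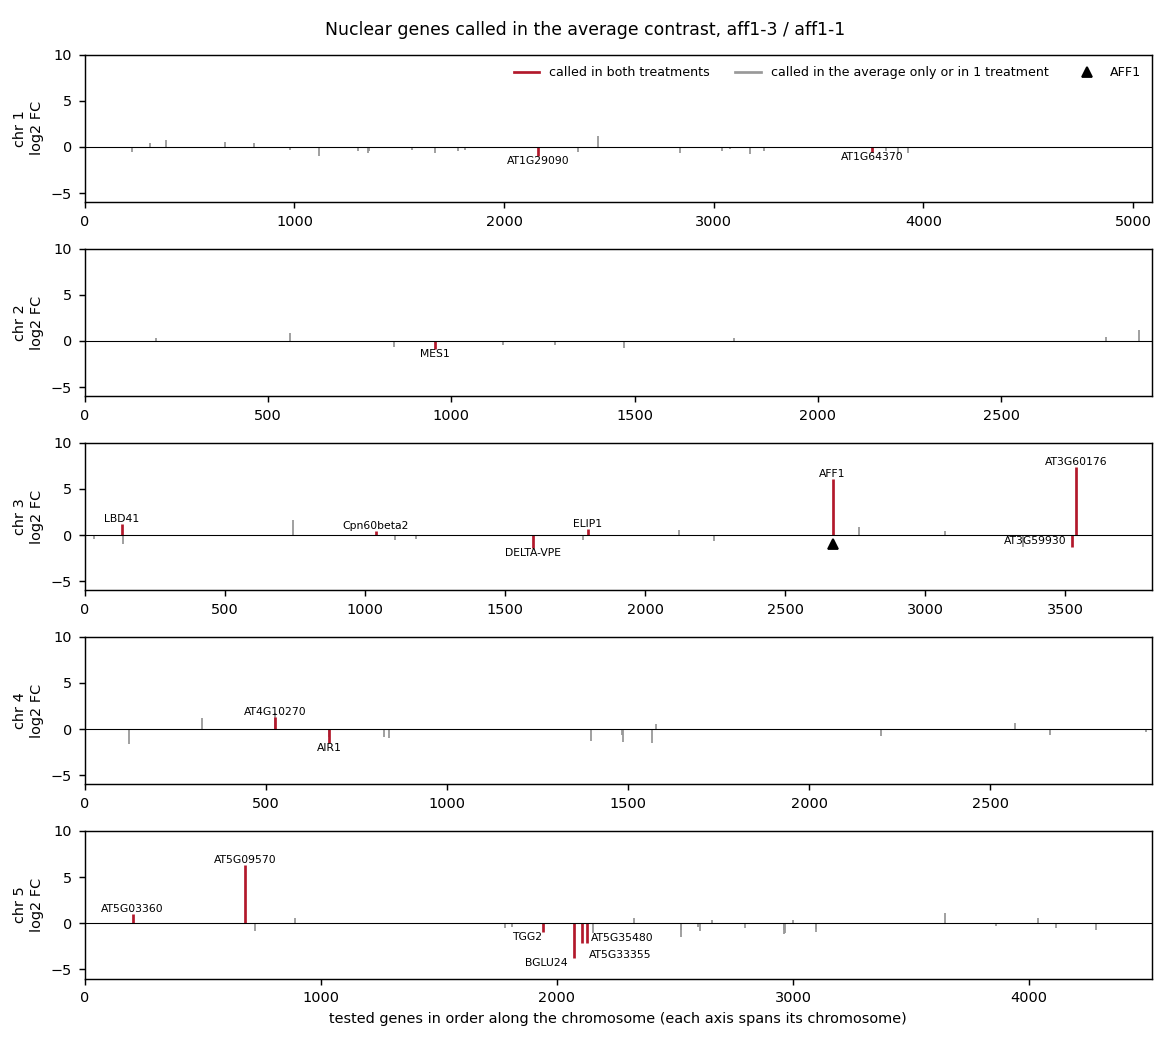
Each row is a chromosome with its tested genes in order on the x axis (axes differ in the number of genes) and the average log2 fold change of *aff1-3* over *aff1-1* on the y axis, drawn for called genes only. Red bars are the 18 genes called in both treatments, grey bars the other called nuclear genes, and the triangle marks *AFF1*. The bar nearest to that of *AFF1* is that of *HEC2*, 93 tested genes away, and 3 red bars stand close together on chromosome 5.

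The response of the 18 genes to IAA was read out within each line. Between IAA and mock seedlings of the same line, 4.95% of genes tested were called in *aff1-3*, 4.87% in *aff1-1* and 9.66% in Wt. By edgeR none of the 18 was called in *aff1-3* (2 at an unadjusted p below 0.05, 0 by limma, 0 by DESeq2) or in *aff1-1* (5 at an unadjusted p below 0.05, 0 by limma, 1 by DESeq2), and 2 were called in Wt: *MES1*, with a log2 fold change of -0.48, and *LBD41*, with 0.90 (IAA/mock). The difference between the alleles was itself compared between IAA and mock, and edgeR called no gene (0% of those tested), with 1368 genes at an unadjusted p below 0.05. On the same contrast limma called 0 genes (1386 at an unadjusted p below 0.05) and DESeq2 called 1 (1344). Of the 18, AT5G09570 had the smallest unadjusted p in this contrast (0.0062, adjusted p = 0.545), followed by AT4G10270 (0.0117, adjusted p = 0.595). A gene called between the alleles in only 1 treatment is therefore not shown to differ between treatments.

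Genes called under mock treatment only included *ACD6*, which encodes an ankyrin-repeat membrane protein that controls cell death and salicylic acid levels, at -1.21 ± 0.13 under mock treatment (adjusted p = 2.23e-05) and -0.55 ± 0.13 after IAA (adjusted p = 0.0609). *HEC2*, described above, was another. AT5G35940 and AT4G01390 were lower, AT5G35940 at -1.44 and AT4G01390 at -1.88 under mock treatment, with -0.76 and -1.42 after IAA. The mock calls of AT5G35940 and AT4G01390 were lost without *aff1-1* mock replicate 1 or 3 or *aff1-3* mock replicate 1 or 2 (adjusted p up to 0.0175), and that of AT4G01390 also without *aff1-1* mock replicate 2. Among genes called after IAA only, *UGT74E2*, which encodes a glucosyltransferase acting on the auxin indole-3-butyric acid, was at 0.28 ± 0.17 under mock treatment (adjusted p = 0.603) and 1.25 ± 0.17 after IAA (adjusted p = 0.000382). AT3G19020 had the largest fold change among these (4.04 ± 0.71, adjusted p = 0.00722). Its libraries were uneven: *aff1-3* IAA libraries were at 4.46, 3.79 and 26 CPM, against 0.877, 0.575 and 0.536 CPM in *aff1-1*, and the call was lost without *aff1-3* IAA replicate 3 (2.62, adjusted p = 0.0499), any *aff1-1* IAA library (adjusted p up to 0.0729) or *aff1-1* mock replicate 1 or 3. *UGT74E2* and *ACD6* were named after their values were seen. *GH9B15*, which encodes a glycosyl hydrolase of the endoglucanase family, was called in neither treatment and was at -1.56 ± 0.30 in the average (adjusted p = 0.0068), a call lost without *aff1-1* mock replicate 3, *aff1-1* IAA replicate 2 or 3, *aff1-3* mock replicate 1 or 3, or *aff1-3* IAA replicate 1 or 3 (adjusted p up to 0.032).

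**Figure D4:**
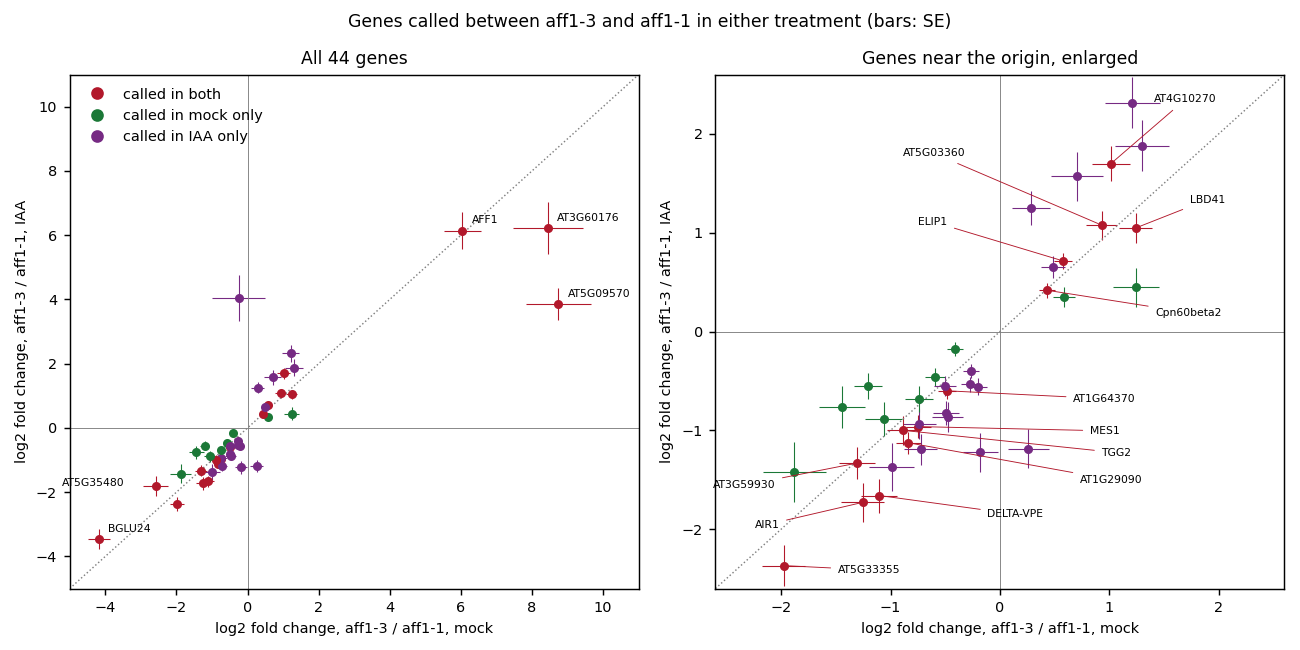
Log2 fold change of *aff1-3* over *aff1-1* under mock treatment (x axis) against that after IAA (y axis) for the 44 genes called in either treatment, with SE bars and the line of equal values (dotted). The left panel shows all 44 and the right panel enlarges those near the origin. The 18 genes called in both treatments (red) lie in the upper right and lower left of the panels near the line, and AT5G09570 lies furthest below it.

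Few members of the auxin and nutrient lists passed the test between the alleles. *NPH4* (the gene of ARF7) was at -0.14 under mock treatment and -0.11 after IAA, and *ARF19* at -0.17 and 0.00, with adjusted p between 0.791 and 0.999. Of 25 tested genes of auxin perception and the ARF family, edgeR called none in the average of both treatments (1 at an unadjusted p below 0.05, 0 by limma, 0 by DESeq2), with a median log2 fold change of -0.07. Of 25 auxin-induced genes it called none (3 at an unadjusted p below 0.05, 0 by limma, 0 by DESeq2), with a median of -0.02. Because *RDR6* makes the precursors of trans-acting siRNAs, 10 tested genes of that pathway and 13 of its targets were read out as well, and none was called (0 at an unadjusted p below 0.05 in either list, 0 by limma, 0 by DESeq2). Over all genes, 14.7% were at an unadjusted p below 0.05 in the average. Among the lists for nutrient responses, *PHT1;1*, a phosphate transporter gene, was the only called gene of 9 tested phosphate starvation genes, at -0.44 ± 0.07 (adjusted p = 0.00248), and limma and DESeq2 each called 2 of them. The *PHT1;1* call was lost without *aff1-3* IAA replicate 1 (adjusted p = 0.0127). None of 13 tested iron deficiency genes was called by edgeR (4 at an unadjusted p below 0.05, 1 by limma, 1 by DESeq2), and their median was -0.32. In the other lists edgeR and limma also called no gene in the average: 13 tested genes of flavonoid synthesis (3 at an unadjusted p below 0.05, 1 by DESeq2), 10 of the nitrate response (3), 8 of defence (5), 11 of the jasmonate response (2), 9 of the heat shock response (6), 10 of the circadian clock (0), 17 of glucosinolate synthesis (3), 4 loci of variable silencing (1) and 7 of seed storage and late embryo (4), with 0 by DESeq2 where no number is given. The median was 0.32 for the heat shock genes and -1.30 for the seed genes, whose sum was high in *aff1-1* IAA replicate 1.

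Total counts were 12610301 to 36102396 per library, lowest in *aff1-3* IAA replicate 3, and libraries of a group had Spearman correlations of 0.981 to 0.994 across genes, which are not independent replicates. No pair of libraries of the same group agreed within sampling noise, so all were counted as separate samples. This does not show that they came from separate cultures, and pairs from different groups were not compared. A gene with no reads in a group was not detected at this depth, which is not the same as absent.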

How the data were processed

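Ribosomal RNA was depleted, and single reads of 50 bases were sequenced. The authors aligned reads to the Ensembl TAIR10 genome with STAR, and the deposited whole-number counts are uniquely assigned reads per gene, made with Subread featureCounts. The kit and the IAA concentration are given differently in places by the study and the labels, and the study's text is followed here. Counts were analysed as deposited in R 4.3.3 with edgeR 4.0.16: TMM factors, a quasi-likelihood fit of 6 group means over all 18 libraries, and Benjamini-Hochberg adjustment, with a gene called at an adjusted p below 0.01. A gene entered the fit if it exceeded 1 CPM in 2 or more of the 3 libraries of some group, and 4 nuclear rRNA genes were left out. CPM values use the TMM factors, apart from marker sums, which use total counts. Intervals of count ratios and the floor of 3 counts cover counting error only, since reads without molecular identifiers are not independent molecules. Alternatives were limma 3.58.1 (voom with sample weights, as in the study), DESeq2 1.42.0, other scalings, filters, thresholds and sample sets, and each *aff1* library left out. Names, positions and sequences come from the RefSeq annotation of TAIR10.1, which matched 99% of gene rows.

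Genes were named by these rules: all genes called in both treatments, *AFF1* and its 5 nearest tested genes on each side, the 5 largest rises and falls in each treatment and in the average with a mean of at least 10 counts, *RDR6*, ARF7 and *ARF19*, and called members of the lists. The genes and lists were chosen with earlier results of these data known. The fits were tested on simulated data.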

Additional observations from a re-analysis of the deposited data

How the results depend on the processing

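The counts of called genes moved with the tool and the threshold. No called fold change of a named gene turned its sign. DESeq2 called 61 genes under mock treatment, 107 after IAA, 32 in both, 232 in the average and 1 for the difference of the IAA response, against 27, 35, 18, 101 and 0 by edgeR. At an adjusted p below 0.05 these were 47, 84, 29 and 241. Asking also for a change of 1 or more on the log2 scale left 16, 22, 11 and 28. A fit of only the 2 groups compared, which has fewer samples, called 9 genes under mock treatment and 7 in both. It lost the mock call of AT1G29090, among others (adjusted p = 0.0309). Without a filter on low counts 55 were called after IAA. Of the 18 genes, limma kept 16, and a fit of only the 4 *aff1* groups kept 11. Those lost under limma were *TGG2* and *AIR1*, by their mock calls (adjusted p = 0.0108 and 0.0109). The mock call of *HEC2* was lost under limma as well (adjusted p = 0.0147). Leaving out 1 *aff1* library gave 12 to 29 genes under mock treatment, 22 to 69 after IAA, 10 to 19 in both, 63 to 150 in the average and 0 to 1 for the difference of the IAA response. Within 250 tested genes of *AFF1*, 4 genes passed an adjusted p of 0.05 in the average, among them *HEC2*, which is 0.8% of those 500 genes, against 1.24% of all genes at that threshold.

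The mock count of low-oxygen genes, 2, was 1 with a stricter filter, with only the 4 *aff1* groups and with only the 2 groups compared, and 1 to 3 without 1 library. These alternatives of the low-oxygen list were chosen after seeing the data. Deviations from the group mean correlated weakly between same-numbered libraries of the alleles (0.148, -0.0292 and 0.0816 under mock treatment, 0.141, -0.0779 and 0.000942 after IAA). Replicate 1 of *aff1-3* correlated best with its own number in both treatments, and replicates 2 and 3 did not. With 3 libraries per group, whose deviations sum to 0, these values cannot decide whether same-numbered libraries shared a batch. With the replicate number as a block, 25, 41, 19 and 119 genes were called under mock treatment, after IAA, in both and in the average. Of 746 fold changes of named genes under other settings, 705 kept direction and side of the threshold, 41 no longer passed it and 0 reversed. Of 864 with a library left out, 760 kept both, 102 no longer passed it and none of the called ones reversed. The other 2 were sign changes of *ARF19*, which was not called: its average log2 fold change of -0.08 was above 0, at up to 0.02, without *aff1-1* mock replicate 1 or *aff1-3* mock replicate 3. The cause of these shifts was not tested. Depth limits the genes near 0 counts, *AFF1*, AT3G60176 and AT5G09570.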

Other observations

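Of the 101 genes called in the average of both treatments, 83 were not called in both treatments singly and 59 were called in neither. All 101 had the same sign under mock treatment and after IAA, against 56.5% of all genes tested, and 95 of the 101 had *aff1-3* libraries that did not overlap with *aff1-1* libraries in either treatment, but the average chose them for this. The groups that follow were picked after their values were seen and carry no test of the group. Neighbouring genes of the thalianol cluster, a run of co-regulated genes for a root triterpene on chromosome 5, were lower in *aff1-3*: *CYP705A5* at -0.77 ± 0.14, *CYP708A2* at -1.18 ± 0.16 and *THAS1*, the thalianol synthase, at -1.05 ± 0.18 (average log2 fold change with SE, highest adjusted p = 0.00467). The neighbouring ferric reductase genes *FRO6* and *FRO7*, which serve iron uptake into shoot cells and chloroplasts, were at -0.97 ± 0.12 and -0.66 ± 0.11 (highest adjusted p = 0.00169). *ESP*, the epithiospecifier of glucosinolate breakdown, was at -0.80 ± 0.13 and its modifier *ESM1* was at -0.53 ± 0.07 (highest adjusted p = 0.00118).

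*CSD2*, a copper/zinc superoxide dismutase of the chloroplast, was at -0.40 ± 0.05, and *CCS*, the chaperone that loads its copper, at -0.33 ± 0.05 (highest adjusted p = 0.0007). 4 called genes that encode plastid proteins were higher in *aff1-3*: *PRIN2*, *FLN1* and *PTAC12*, whose products take part in plastid transcription, at 0.47 ± 0.07, 0.40 ± 0.06 and 0.30 ± 0.06, and *CR88*, a chloroplast HSP90, at 0.30 ± 0.06 (highest adjusted p = 0.0068). *ELIP1* and *Cpn60beta2*, described above, were higher as well. Called genes also went the other way: *CSD2*, given above, and the plastid-encoded ATCG00290, at -0.80 ± 0.14 (adjusted p = 0.00304). Plastid genes were not tallied as a set. *MAF4*, a relative of the flowering repressor FLC, was at -0.77 ± 0.13 (adjusted p = 0.00265). Among genes called after IAA only, AT1G33055 was at 0.70 ± 0.24 under mock treatment and 1.57 ± 0.25 after IAA (adjusted p = 0.00221).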
